A study of Mus musculus with 6 samples.

Results

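The genes described here encode chaperones and folding factors of the endoplasmic reticulum (ER) that belong to the unfolded protein response, together with Xbp1, a transcription factor of that response. They were taken as 10 genes listed by name. The rule itself uses no measured value, but the list was drawn up with earlier results of these data known. Of the 10, 8 were measured by a probe set listed for that gene alone, out of 30702 genes named in the series: Hspa5, Hsp90b1, Xbp1, Dnajb9, Dnajb11, Sdf2l1, Hyou1 and Creld2. Each had a single such probe set. The other 2, Pdia4 and Manf, were represented only by probe sets that also list a second gene, and the values of those probe sets are given apart.

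The livers came from 6 male mice aged 8 weeks, with 1 Affymetrix array per mouse. The 3 HFD-inulin mice were offspring of mothers given inulin, a fermentable plant fibre, and their titles also carry HFD. The 3 HFD mice were offspring of mothers on a high-fat diet. The labels do not give the strain, the diet of the offspring themselves, the timing of the inulin or whether mice shared a litter, so the p-values reflect only how far these arrays differ among themselves, which may be technical in part. The labelled tissue was checked on hepatocyte markers. All 8 measured ones, among them the albumin gene Alb at 11.4 to 11.6 in every array, had a mean log2 signal of at least 4.

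Secreted proteins fold in the ER, and the liver, which makes most plasma proteins, carries a heavy folding load. When unfolded proteins build up, the sensors IRE1, PERK and ATF6 are released from the chaperone BiP. IRE1 splices Xbp1 mRNA, ATF6 is cut to an active factor, and both factors raise transcription of ER chaperones through short promoter elements. PERK slows translation and favours the factors ATF4 and CHOP. The best known of these promoter elements is the ER stress element (ERSE), a CCAAT box bound by NF-Y followed by a CCACG box bound by ATF6 or XBP1.

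RefSeq promoter windows on GRCm38.p6, from 250 bases before to 50 bases after the gene's start, were available for 8 of the 10 listed genes. Hyou1 and Manf had none. The ERSE, searched on both strands as CCAAT and CCACG with 9 bases between them, lay in 3 of these 8 windows, Hspa5, Hsp90b1 and Creld2. It lay in 39 of 32851 windows of all genes, or 0.119%. The window of Hsp90b1 held 2 matches and was the only one of all windows with more than 1. The 3 stretches that hold the matches are shown because these elements are the feature the group is known for. They read 5′ to 3′ on the gene's strand, and capitals mark the boxes of the ERSE matches, CCAAT and CCACG, which read ATTGG and CGTGG where the element runs on the opposite strand. Other CCAAT boxes of the Hsp90b1 stretch, which belong to no ERSE match, stand in lower case.
Hspa5, chr2:34772015-34772053, plus strand: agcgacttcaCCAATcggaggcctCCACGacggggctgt
Hsp90b1, chr10:86705523-86705666, minus strand: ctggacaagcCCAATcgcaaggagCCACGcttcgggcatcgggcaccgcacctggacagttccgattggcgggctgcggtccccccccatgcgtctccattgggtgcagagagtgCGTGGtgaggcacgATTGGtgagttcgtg
Creld2, chr15:88819510-88819548, plus strand: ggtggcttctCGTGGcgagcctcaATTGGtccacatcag

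The ERSE of Hspa5 ended 47 bases before the gene's start. Those of Hsp90b1 began 212 and 107 bases before it, and that of Creld2 began 126 bases before it. The related ERSE-II, ATTGG and CCACG with 1 base between them, matched once among the 8, at bases 8 to 18 after the start of Dnajb11, and in 0.0365% of all windows. Its ATTGG is a CCAAT box on the other strand, so the motifs share a box but no match was counted under both names. The core of the UPR element, TGACGTGG, matched in 0 of the 8 windows and in 0.676% of all windows. The single boxes are common, and each ERSE or ERSE-II match also counts as a match of its boxes. CCAAT alone lay in 7 of the 8 windows and in 37.4% of all, and CCACG alone in 7 of 8 and in 32.8% of all. The window of Xbp1 held neither. A match is a string of letters and not a shown binding site, and binding was not measured here.

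**Figure D1:**
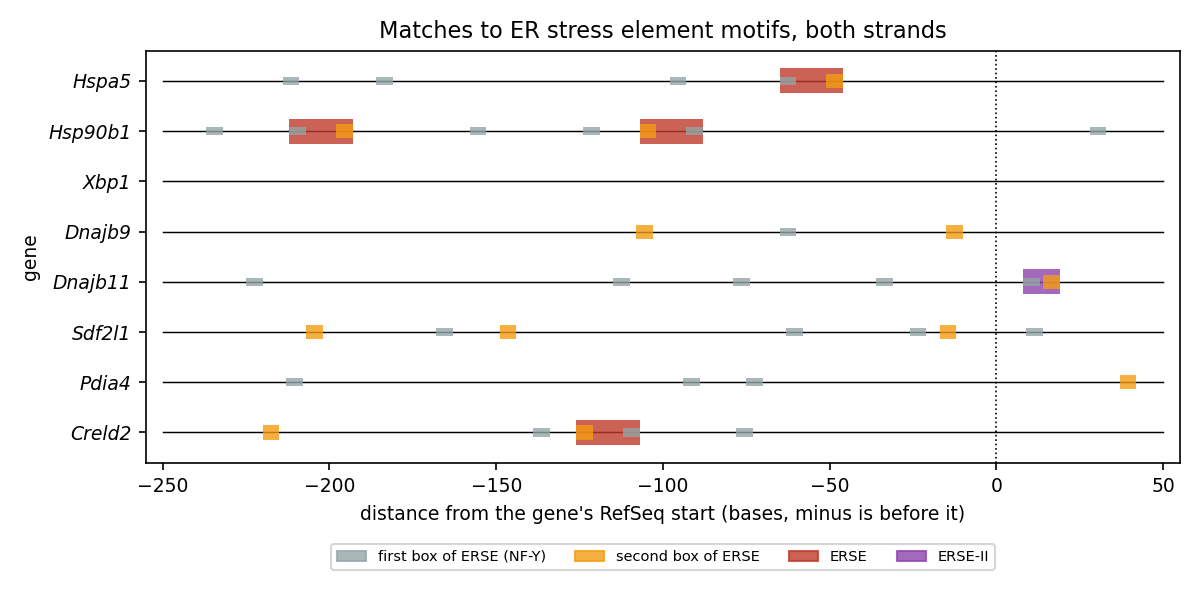
Motif matches in the RefSeq promoter windows of the 8 listed genes that have one, by distance in bases from the gene's start (horizontal axis, dotted line at the start), 1 gene per row. Large boxes are whole elements, seen in Hspa5, Hsp90b1 (2 matches) and Creld2 before the start and in Dnajb11 (ERSE-II) after it, and small boxes are the single boxes of the ERSE on either strand.

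None of the 8 genes differed between the groups beyond the spread between arrays. The HFD-inulin mean was the higher one for all 8. Their median log2 difference was 0.53, against -0.02 over all probe sets, but its size rested on 1 mouse. HFD-inulin array 2 was the highest of the 6 arrays for all 8 genes, from 1.69-fold (Dnajb9) to 6.52-fold (Creld2) above the HFD mean. HFD-inulin array 3 lay below the HFD mean for all 8. Without HFD-inulin array 2 the median difference was 0.06, and 5 of the 8 genes kept a higher mean.

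The values below are the deposited log2 signals, where 1 unit is a doubling, for arrays 1, 2 and 3 of each group in that order. Signals of different genes come from different probes, so only the differences are set against each other.

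Hspa5 encodes BiP, the ER Hsp70 that binds nascent chains and holds the stress sensors inactive. It measured 7.27, 8.29 and 6.96 in HFD-inulin and 7.32, 7.47 and 7.22 in HFD. HFD-inulin array 2 stood above all HFD arrays, array 1 fell among them and array 3 below them, so the groups overlapped. The group means were 7.51 ± 0.70 and 7.34 ± 0.13 (SD, n = 3 each), a log2 difference of 0.17 (SE 0.32, limma adjusted p = 0.958).

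Hsp90b1 encodes GRP94, the ER member of the Hsp90 family. It measured 8.10, 9.13 and 7.80 in HFD-inulin and 7.86, 7.81 and 7.78 in HFD. The HFD arrays lay within 0.08 of each other, HFD-inulin arrays 1 and 2 lay above them and array 3 among them. The difference was 0.53 (SE 0.32, limma adjusted p = 0.902), with an SD of 0.70 in HFD-inulin and 0.04 in HFD.

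Hyou1 encodes GRP170, a large ER chaperone that also exchanges nucleotide on BiP. It measured 6.02, 7.29 and 5.44 in HFD-inulin and 5.66, 5.89 and 5.61 in HFD. Array 3 was the lowest and array 2 the highest of all 6, so HFD-inulin enclosed the HFD group. The difference was 0.53 (SE 0.43, limma adjusted p = 0.917).

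The co-chaperones of BiP split in size. Dnajb9, or ERdj4, an Hsp40 protein that hands misfolded proteins to BiP and is a known target of XBP1, measured 6.13, 7.02 and 5.97 in HFD-inulin and 6.24, 6.39 and 6.15 in HFD. Only array 2 of HFD-inulin lay above the HFD arrays, and arrays 1 and 3 lay below all of them. Its difference, 0.11 (SE 0.26, limma adjusted p = 0.965), was the smallest of the 8.

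Dnajb11, or ERdj3, an Hsp40 protein that binds unfolded chains with BiP, measured 4.64, 5.95 and 4.10 in HFD-inulin and 4.20, 4.25 and 4.09 in HFD. HFD-inulin arrays 1 and 2 stood above the HFD group and array 3 lay at its lower edge. The difference was 0.72 (SE 0.43, limma adjusted p = 0.902).

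Sdf2l1 encodes a luminal partner of ERdj3 that keeps clients soluble. It measured 5.88, 7.09 and 4.89 in HFD-inulin and 5.13, 5.32 and 4.98 in HFD. Array 1 was 1.67-fold and array 2 was 3.86-fold above the HFD mean, and array 3 was the lowest of the 6. The difference was 0.81 (SE 0.50, limma adjusted p = 0.902).

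Creld2, an ER-resident and secreted protein induced by ER stress, had the widest spread. It measured 6.14, 8.45 and 5.15 in HFD-inulin and 5.64, 6.03 and 5.57 in HFD. The range within HFD-inulin was 3.29 log2 units against 0.46 within HFD. Its difference of 0.84 was the largest of the 8 and its error nearly as large (SE 0.77, limma adjusted p = 0.922).

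Xbp1 encodes the transcription factor made active by IRE1 splicing. It measured 6.41, 7.41 and 6.08 in HFD-inulin and 6.23, 6.15 and 6.06 in HFD. Array 3 fell inside the HFD range, and arrays 1 and 2 lay above it. The difference was 0.49 (SE 0.32, limma adjusted p = 0.902). The spliced and unspliced forms were not told apart here.

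Probe set TC0600002212.mm.1, listed for both Pdia4 and the microRNA gene Mir704, measured 7.88, 8.80 and 7.23 in HFD-inulin and 7.36, 7.51 and 7.36 in HFD. Pdia4 encodes the ER disulfide isomerase ERp72. Probe set TC0900003021.mm.1, listed for both Manf and Rbm15b, measured 3.49, 3.84 and 3.43 against 3.56, 3.43 and 3.36. Manf encodes a secreted ER stress-induced factor. Both probe sets were highest in HFD-inulin array 2, the second with a far smaller margin, and neither value can be given to 1 gene. Their differences were 0.56 (SE 0.36, limma adjusted p = 0.902) and 0.14 (SE 0.12, limma adjusted p = 0.922).

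**Figure D2:**
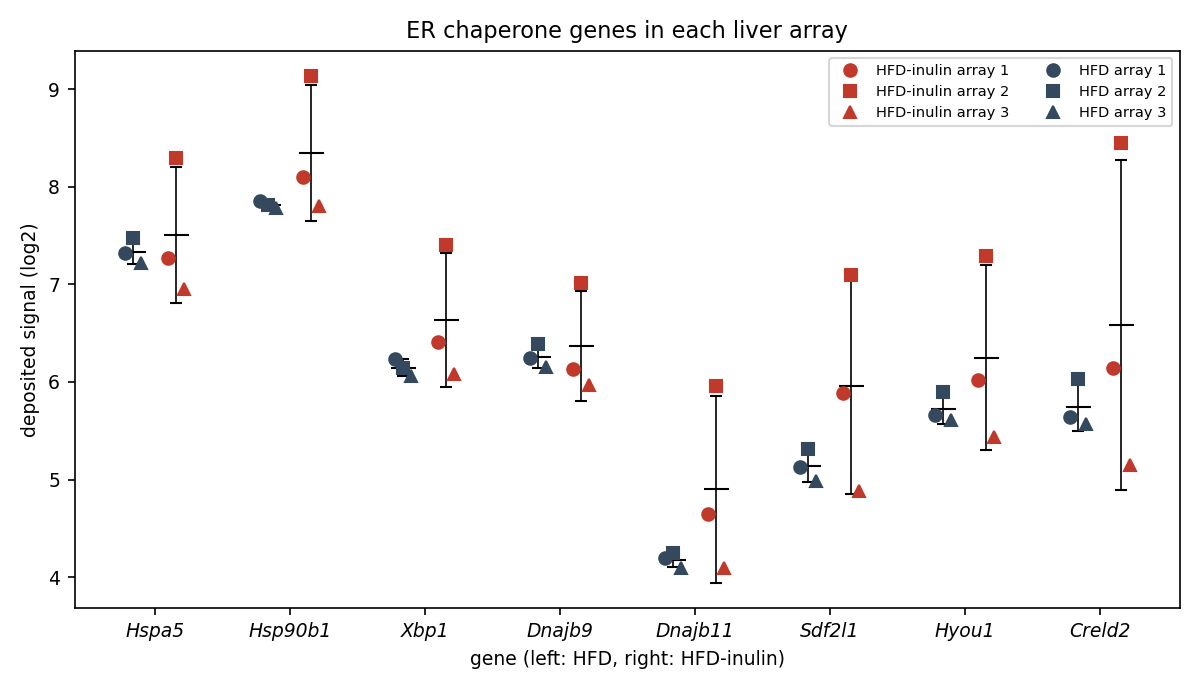
Deposited log2 signal (vertical axis) of the 8 genes (horizontal axis) in each array, with the HFD arrays at left and the HFD-inulin arrays at right of each gene; marker shape gives the array number, and bars are the group mean ± SD (n = 3). HFD-inulin array 2 is the highest point for all 8 genes, and HFD-inulin array 3 is the lowest for 5.

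Across the group, 0 of 8 genes passed a limma adjusted p of 0.05, as did 0 of 65956 probe sets (0%). At an unadjusted p under 0.05 there were also 0 of 8, against 3399 probe sets (5.15%). In 0 of the 8 were the groups apart, against 10.3% of all probe sets. The counts of the 8 did not exceed these shares. The unadjusted p of the 8 ran from 0.143 (Dnajb11) to 0.684 (Dnajb9).

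The 8 genes shared parts of their array order. Within HFD-inulin, array 2 exceeded array 1 and array 1 exceeded array 3 in 8 of 8, an order held by 14.3% of all probe sets. HFD-inulin array 2 was the highest of the 6 arrays in 8 of 8, against 15.6% of all probe sets. It lay at least 1 log2 unit above the HFD mean in 6 of 8, against 0.515% of all probe sets. The exceptions were Hspa5 (0.95) and Dnajb9 (0.76). All probe sets include many dim ones, with a median mean signal of 1.22, whereas the 8 genes measured 4.09 or more in every array. No share among genes of like signal was taken. In the pathway lists described below, HFD-inulin array 2 was the highest array for 2 of 9 heat shock chaperones and up to 19 of 19 translocon and signal peptide genes. Within HFD, array 3 was the lowest in 8 of 8, against 31.2% of all probe sets, and array 2 the highest in 6 of 8. These orders were noticed after the values were seen and describe single mice, so they carry no test.

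HFD-inulin array 1 separated Hspa5 and Dnajb9 from the other 6 genes. For those 2 its log2 value minus the HFD mean was -0.07 and -0.13, and HFD array 2 was the second highest array. For the other 6 it lay above all HFD arrays, by 0.27 (Xbp1) to 0.74 (Sdf2l1) over the HFD mean. In HFD-inulin array 3 the same quantity ran from -0.02 (Hsp90b1) to -0.59 (Creld2), with a median of -0.27. The SD within HFD-inulin, 0.56 to 1.69, exceeded that within HFD, 0.04 to 0.25, for each of the 8 genes.

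The arrays were also split in 2 parts, which cross the groups, at the largest gap in a single mean signal. Such a cut always gives 2 parts, and the arrays were not clustered over all probe sets. The mean log2 signal of 245 chromosome Y probe sets that share their values exactly with another probe set was 1.34 to 1.91 in HFD-inulin arrays 1 and 2 and HFD array 1, called low-signal arrays here, and 2.99 to 3.24 in HFD-inulin array 3 and HFD arrays 2 and 3, called high-signal arrays. Within the low-signal arrays the median difference of the 8 genes was 0.88, and 8 of 8 were higher. Within the high-signal arrays it was -0.28, and 1 of 8 was higher, Hsp90b1 by 0.0017. With the split as a block it was 0.36, with 0 of 8 past the adjusted threshold in limma in each of these fits. At an unadjusted p under 0.05 there was 1 of 8 within the low-signal arrays (Sdf2l1), against 5.64% of all probe sets, and 2 of 8 within the high-signal arrays (Hspa5 and Creld2), against 6.58%. Each part compares 2 arrays with 1, and the part played by whatever separates these arrays was not tested.

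Sdf2l1 differed by 1.36 (SE 0.51) within the low-signal arrays and by -0.26 (SE 0.16) within the high-signal arrays. Creld2 differed by 1.66 (SE 0.95) and -0.64 (SE 0.21), and Hspa5 by 0.46 (SE 0.43) and -0.39 (SE 0.14). The low-signal part holds HFD-inulin array 2, the highest array for all 8 genes. The high-signal part holds only HFD-inulin array 3, below the HFD mean for all 8. The opposite signs therefore go with that array order and carry no separate weight, although the order does not fix them for each gene. Of the 8 genes only Hsp90b1, which has the same order, did not change sign. HFD-inulin array 3 lay below the HFD mean for all 8 genes, so leaving it out raises every difference, and the counts that follow carry no separate weight. The median without it was 0.87, with 5 of 8 genes at an unadjusted p under 0.05 in limma, against 9.89% of all probe sets. These 5 were Hsp90b1, Xbp1, Dnajb11, Sdf2l1 and Hyou1, and 0 passed the adjusted threshold. The smallest adjusted p there was 0.273, for Sdf2l1.

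**Figure D3:**
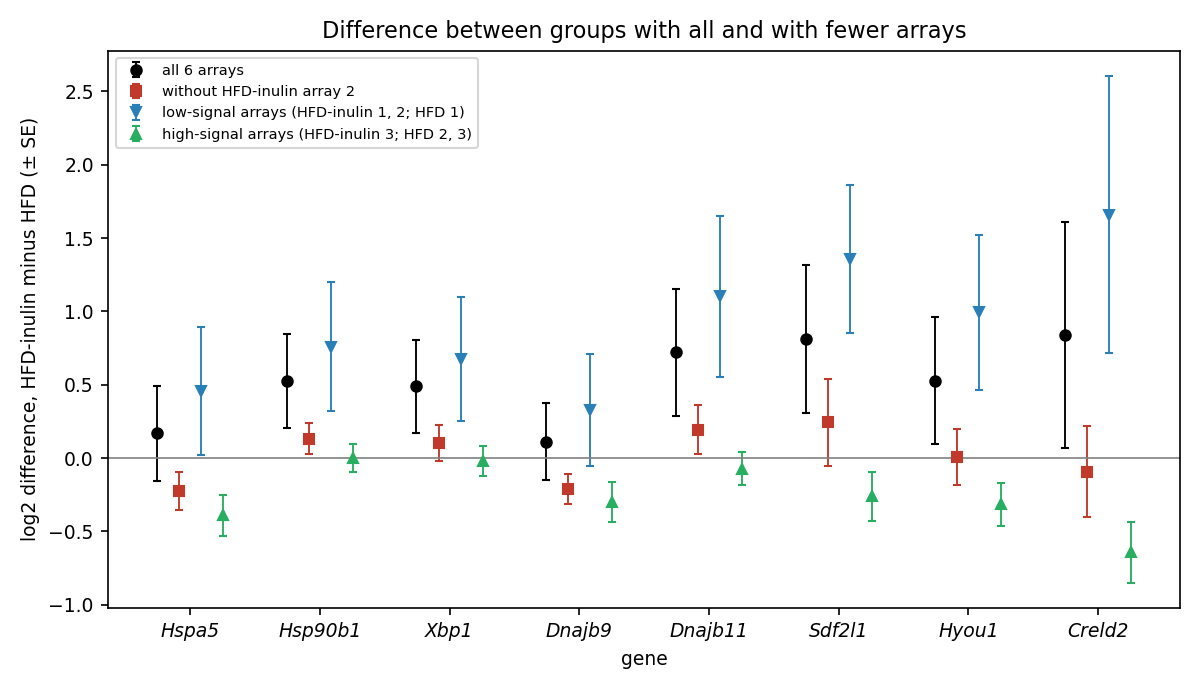
Log2 difference, HFD-inulin minus HFD, with its SE from limma (vertical axis) for the 8 genes (horizontal axis), from all 6 arrays, without HFD-inulin array 2, and within the low-signal and high-signal arrays. Points of the low-signal arrays lie above 0 for all 8 genes, and those of the high-signal arrays lie at or below 0 (largest 0.0017).

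The genes around the chaperones in the same pathway were read from lists grouped by function. Each count at an unadjusted p under 0.05 below stands against 5.15% of all probe sets in either direction, and each gene whose groups did not overlap against 10.3%. No gene of any list passed the limma threshold adjusted over all probe sets. Averaged over the sensors and transcription factors and set against HFD, the HFD-inulin arrays 1, 2 and 3 stood at -0.01, 0.19 and -0.07, where the 8 genes described here, Xbp1 included, stood at 0.28, 1.54 and -0.24. HFD-inulin array 2 lay above all HFD arrays for 10 of the 13 measured sensors and factors. Of these 13, 0 had an unadjusted p under 0.05, and the median difference was -0.01. Those with the smallest p were Creb3l3, a liver factor cleaved like ATF6 (0.25, SE 0.14), Atf6b (0.15, SE 0.08) and Mbtps1, the site-1 protease that cuts ATF6 (0.15, SE 0.11). The sensor genes themselves, named here for their role, differed by -0.01 (Ern1, encoding IRE1), -0.06 (Eif2ak3, encoding PERK) and -0.07 (Atf6).

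ER-associated degradation removes proteins that fail to fold. Of 19 measured genes, 0 were higher and 1 lower at an unadjusted p under 0.05, with a median difference of 0.07. The lower one was Herpud1, a membrane adaptor of the HRD1 ligase. It measured 8.12, 8.18 and 8.71 in HFD-inulin and 8.86, 9.29 and 8.72 in HFD. Every HFD-inulin array lay under every HFD array, and array 2, where the chaperones were highest, differed from the HFD mean by -0.78. The difference was -0.62 (SE 0.20, limma adjusted p = 0.902). Next by p were Vcp, the ATPase that extracts substrates (0.29, SE 0.13), and its cofactor gene Ufd1 (0.23, SE 0.11). Derl3, a derlin of the ER membrane named after its values were seen, measured 3.71, 6.03 and 2.84 against 2.99, 2.86 and 2.61. At 3.21 log2 units over the HFD mean, its value in HFD-inulin array 2 stood further out than that of any of the 8 chaperone genes.

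Glycoproteins fold in the calnexin and calreticulin cycle. Of its 8 genes 0 had an unadjusted p under 0.05, all 8 had a higher mean in HFD-inulin, and the median difference was 0.28. The smallest p belonged to Prkcsh, a glucosidase subunit (0.36, SE 0.20), Pdia3, the isomerase ERp57 (0.47, SE 0.32), and the lectin gene Canx (0.19, SE 0.13). Pdia3 measured 7.66, 8.37 and 6.98 in HFD-inulin and 7.23, 7.27 and 7.10 in HFD, with array 2 of HFD-inulin the highest and array 3 the lowest of the 6. The other disulfide isomerases and oxidases had a higher mean in 13 of 13, with a median of 0.21. Of them 2 were higher at an unadjusted p under 0.05: Prdx4, an ER peroxiredoxin (0.18, SE 0.07), and Tmx1, a membrane thioredoxin (0.31, SE 0.13). Erp29 followed (0.23, SE 0.10).

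BiP co-chaperones and prolyl isomerases had a median difference of 0.11 over 12 genes, 1 of them higher at an unadjusted p under 0.05. This was Sil1, a nucleotide exchange factor of BiP, at 5.54, 5.76 and 5.41 in HFD-inulin and 5.31, 5.34 and 5.30 in HFD. Its groups did not overlap, and the difference was 0.26 (SE 0.10, limma adjusted p = 0.902). Ppib, the ER cyclophilin B (0.60, SE 0.30), and Dnajc3, encoding P58IPK (0.62, SE 0.32), followed.

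The translocon and signal peptide list had a higher mean in 19 of 19 genes, with a median of 0.25, and HFD-inulin array 2 was the highest array for all 19. At an unadjusted p under 0.05, 2 were higher, Spcs1 of the signal peptidase (0.36, SE 0.13) and Ssr2 of the TRAP complex (0.62, SE 0.26). Ssr4 of the same complex differed by 0.24 (SE 0.12). Ssr2 measured 7.17, 7.94 and 6.85 in HFD-inulin and 6.73, 6.70 and 6.67 in HFD, so that array 3 too lay above the HFD arrays.

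The PERK, ATF4 and CHOP branch had no common direction. Of 13 genes, 5 had a higher and 8 a lower mean, with a median of -0.04. At an unadjusted p under 0.05, Atf4 was higher and Trib3 lower. Atf4 measured 5.16, 5.39 and 5.03 in HFD-inulin and 4.97, 4.76 and 4.63 in HFD, with groups that did not overlap (0.40, SE 0.13, limma adjusted p = 0.902). Trib3, a pseudokinase induced by ATF4 and CHOP, differed by -0.30 (SE 0.12), and the asparagine synthetase gene Asns, an ATF4 target, by 0.45 (SE 0.34). Ddit3, which encodes CHOP and is named for its role, differed by -0.04 (SE 0.16). The platform names the probe set read for Ddit3 as unmapped, so this value is less certain.

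Chaperones outside the ER had another array order on average. Of the 12 listed, Hspa1b, Hsp90ab1 and Dnaja1 were not measured by a probe set of their own. Averaged over 9 cytosolic and mitochondrial heat shock chaperones, the HFD-inulin arrays 1, 2 and 3 stood at 0.89, 0.68 and -0.04 against HFD, so that array 1 and not array 2 was highest. Hspb1, named after its values were seen, weighs heavily in this, at 6.17 in array 1 and 4.83 in array 2. Array 2 was still the highest array for 2 of the 9. At an unadjusted p under 0.05, 2 were higher, the mitochondrial pair Hspe1 (0.71, SE 0.25) and Hspd1 (0.55, SE 0.21). Hsp90aa1, the cytosolic paralog of Hsp90b1, measured 7.82, 7.54 and 5.95 in HFD-inulin and 6.17, 6.13 and 5.94 in HFD (1.03, SE 0.46). Whether the ER and the other chaperones differ in this order was not tested.

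**Figure D4:**
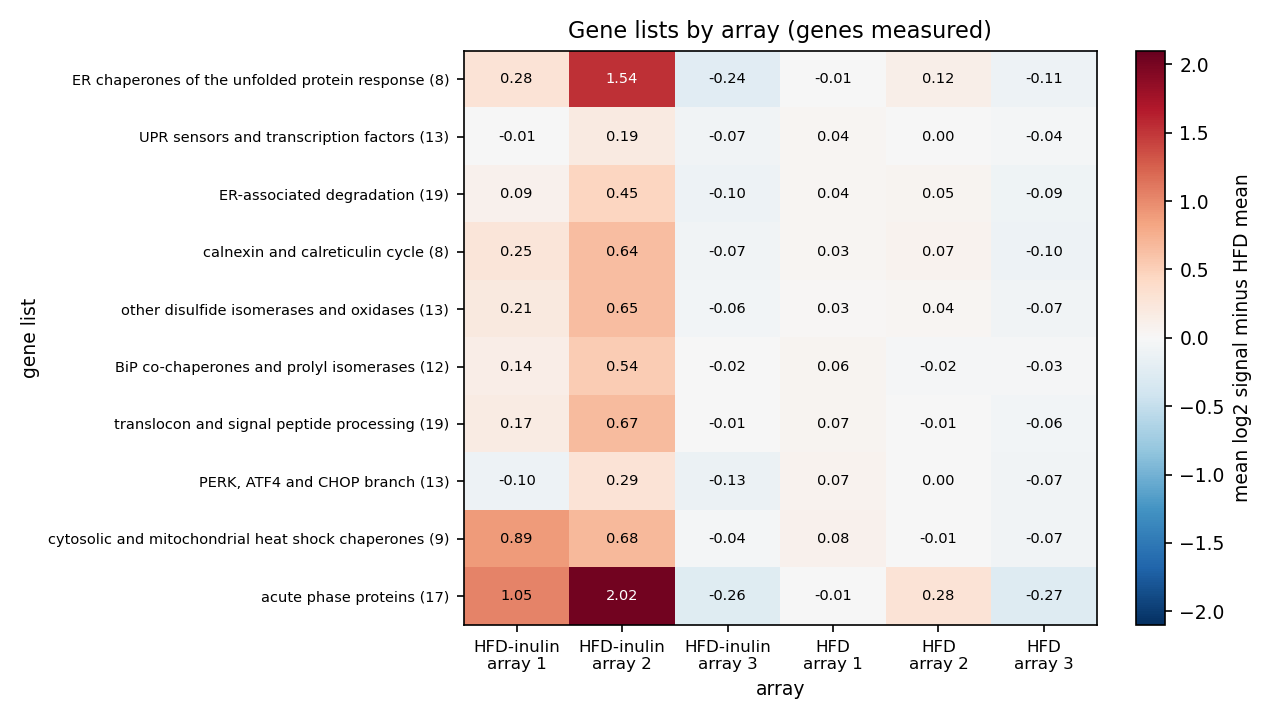
Mean log2 signal of each gene list minus its mean in the HFD arrays (colour and printed value) by list (rows, with the number of genes measured) and array (columns). The 8 ER chaperone genes reach 1.54 in HFD-inulin array 2, acute phase proteins reach 2.02 there, and every list drawn lies between -0.26 and -0.01 in HFD-inulin array 3. The cell type marker lists are not drawn.

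Acute phase proteins, which hepatocytes secrete in inflammation, stood high in the same arrays. Averaged over 17 such genes and set against HFD, the HFD-inulin arrays 1, 2 and 3 stood at 1.05, 2.02 and -0.26. The HFD arrays stood at -0.01, 0.28 and -0.27, and for the chaperone genes at -0.01, 0.12 and -0.11, the same order. Saa2 (2.99, SE 1.24) and Saa1 (2.59, SE 1.18) had the largest differences. HFD-inulin array 2 was the highest array for 17 of 17. The part of the acute phase in the chaperone values was not tested.

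Markers of other cells that could carry such chaperones were read beside them. In bulk tissue, fewer cells of a type and less RNA per cell cannot be told apart. Plasma cells are rich in ER chaperones. Their 7 measured markers summed to 10.5 to 12.1 log2 units in HFD-inulin and 11.7 to 14.2 in HFD, 1 of 7 was highest in HFD-inulin array 2, and Jchain and Prdm1 lay at or below the median probe set. All 7 were dim, with 0 at a mean log2 signal of at least 4. The same held for the acinar, neutrophil and cholangiocyte markers below, so these sums say little about such cells. The largest difference in that list was in Ighm (-1.02), followed by Jchain (-0.23). Pancreatic acinar markers, 8 measured, summed to 12.8 to 13.0 and 12.7 to 13.0, with Cpb1 and Prss2 at or below the median probe set. Prss2 (-0.25) and Ctrb1 (0.13) differed most, and Ctrb1 was the 1 marker of 8 that was highest in HFD-inulin array 2, at 2.47.

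Neutrophil markers, 7 measured, summed to 9.67 to 12.4 in HFD-inulin and 9.32 to 10.4 in HFD, with S100a8 and Ngp at or below the median probe set on average. S100a8 measured 2.33 in HFD-inulin array 2 and 0.50 to 0.91 in the other arrays, and S100a9 differed by 0.38. Both are among the 3 of 7 neutrophil markers with a higher HFD-inulin mean. The other 4 had a lower one, and the median difference of the list was -0.01. The 4 cholangiocyte markers summed to 8.57 to 10.5 and 8.30 to 8.98, with Krt19 at 3.04 in HFD-inulin array 2 and 1.82 to 1.93 in the others, and Krt7 at 2.61 against 2.32 to 2.42. HFD-inulin array 2, where the chaperones were highest, was the highest array for 2 of 7 neutrophil and 3 of 4 cholangiocyte markers, and their part in the chaperone values was not tested. The 6 Kupffer cell markers summed to 28.7 to 29.7 and 29.3 to 30.6 (Adgre1 -0.32, Timd4 -0.32). Of these 6, 4 had a lower HFD-inulin mean. The 2 others, named for their direction, were slightly higher, Clec4f (0.03) and Vsig4 (0.02). The 6 stellate cell markers summed to 24.9 to 27.1 and 26.0 to 27.3 (Reln -0.41, Lrat 0.25), and the 5 endothelial markers to 23.4 to 23.8 and 23.7 to 24.6 (Stab2 -0.28, Clec4g 0.23). Hepatocyte markers summed to 79.8 to 82.9 and 82.9 to 83.2 (Cyp3a11 -0.95, Cps1 -0.68). Averaged over their 8 genes and set against HFD, they stood at -0.39, -0.40 and -0.02 in arrays 1, 2 and 3 of HFD-inulin. This average was thus lower in arrays 1 and 2, where most of the chaperones were high. Cyp3a11 (-1.33 and -1.63 from the HFD mean in these arrays) and Cps1 (-0.98 and -0.92) weigh heavily in it. Of the 8 markers, 7 had a lower HFD-inulin mean and 1, Apoa1, a higher one (0.14). The part of the hepatocyte markers in the chaperone values was not tested.

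Among 4243 other protein-coding genes with a mean log2 signal of at least 4, those whose profile over the 6 arrays was most like the mean of the 8 were Dpp9 (Pearson r = 0.998), Uggt1 (0.998), Eif6 (0.997), Pnp (0.996) and Tm9sf4 (0.996). Uggt1, the glucosyltransferase that checks glycoprotein folding in the calnexin cycle, measured 4.91, 5.68 and 4.57 in HFD-inulin and 4.76, 4.76 and 4.63 in HFD. The most opposite profiles were those of Abca8a (-0.996), Fam149a (-0.994) and Cpq (-0.993). Abca8a, a lipid transporter gene, measured 4.63, 2.77 and 5.54 in HFD-inulin and 5.15, 5.10 and 5.47 in HFD. These r values are a ranking over 6 shared arrays, given without a test, and HFD-inulin array 2 weighs heavily in them. Of the 4243 genes, 203 had an r over 0.95, so the first 5 are not set apart from many others. Without HFD-inulin array 2 the r values were 0.947 to 0.982 for the first 5 genes and -0.912 to -0.967 for the last 3. These genes had been picked on all 6 arrays.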

How the data were processed

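Liver total RNA was labelled with biotin and hybridised to 1 array per mouse, per the labels. The authors' deposited log2 signals give 1 value per probe set and array, and the submitters' processing notes name Affymetrix Expression Console 1.0. How signals were summarized and corrected, and the build, is not given in the sources used here. Values between -0.13 and 12.1 were read as log2. Array medians ran from 1.17 to 1.26. No scanner file or detection call was used, no scan batch could be tested, and 3 arrays per group limit the precision.

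Platform symbols, updated through RefSeq (GRCm38.p6), named 31258 of 65956 probe sets with 1 gene, 1492 listed several genes and 33206 none. Each gene took its probe set with the highest mean. All probe sets were fitted with limma 3.58.1 (R 4.3.3; lmFit and eBayes, HFD-inulin minus HFD, two-sided, no filter or covariate) with Benjamini-Hochberg adjustment over all 65956, threshold 0.05. The fit was tested on simulated data. Lists are described by counts and medians. The members, lists and alternatives were chosen with earlier results of these data known. Named genes are all members, the 3 smallest p of each pathway list, the 2 largest differences of each marker list and of the acute phase list, and the 5 most and 3 least alike profiles; others are said to be named otherwise. No label pairs the mice, so no pairing by replicate number was assumed.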

Additional observations from a re-analysis of the deposited data

How the results depend on the processing

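The count of members past the adjusted threshold was 0 under each alternative run, and that of all probe sets was 0 except with a trended and robust prior, which called 4. Leaving out 1 array gave a median difference of the members from 0.06 (without HFD-inulin array 2) to 0.87 (without HFD-inulin array 3). The latter array lay below the HFD mean for every member, so its removal raises every difference. Leaving out 1 array gave 0 to 5 members at an unadjusted p under 0.05 (5 without HFD-inulin array 3, where 9.89% of all probe sets were). Within the high-signal arrays the median was -0.28 with 2 such members (6.58% of all probe sets), and within the low-signal arrays there was 1 (5.64%). Within the high-signal arrays the difference turned negative for Hspa5 (-0.39), Xbp1 (-0.018), Dnajb9 (-0.30), Dnajb11 (-0.071), Sdf2l1 (-0.26), Hyou1 (-0.31) and Creld2 (-0.64), and without HFD-inulin array 2 for Hspa5 (-0.22), Dnajb9 (-0.21) and Creld2 (-0.094). Without each array in turn, these 3 genes reached 0.44, 0.31 and 1.55 at most. The other 126 of 136 member values kept their sign, but this count includes settings that cannot change a member's difference. Quantile normalization gave a median of 0.45, median centring 0.56 and array weights 0.50. With the replicate block the median was 0.53, with 0 members called. Deviations of same-numbered arrays correlated at 0.26, -0.28 and 0.40, so the numbers were not read as a pairing. Adding the 2 probe sets that list a second gene, chosen after seeing the data, left the median at 0.53. Those settings were the replicate block, the trended and robust prior, leaving out dim probe sets, ordinary least squares and the mean over a gene's probe sets. Each left every member's difference as it was.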
